A study of Mus musculus with 374 samples.

Results

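The phagocyte NADPH oxidase is followed here through 6 of its genes in single mouse blood cells. The genes were chosen by name from the known makeup of the enzyme, though with earlier results of these data known. All 6 had a row among the 19829 rows of mouse genes in the deposited count table. They are Cybb and Cyba, which encode the membrane subunits gp91phox and p22phox, Ncf1 and Ncf4, which encode the cytosolic subunits p47phox and p40phox, and Rac1 and Rac2, which encode small GTPases. Each gene was described across 5 sorted populations by the unique molecular identifiers (UMIs, 1 for each captured transcript molecule) summed over the cells of a population.

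The cells came from 1 C57BL/6 female aged 10 to 13 weeks and were sorted into the wells of 1 plate for CEL-seq2, which reads the 3′ end of polyadenylated RNA. Bone marrow gave 4 gates: granulocytes were Mac1+ Gr1+ (96 wells), progenitor/stem cells were Lin- Kit+ Sca1+ (95 wells), erythroblasts were Ter119+ CD44+ with mid to high FSC-A (96 wells), and B lymphocytes were B220+ with low FSC-A (44 wells). T lymphocytes were CD3+ cells with low FSC-A from the thymus of the same mouse (43 wells). The labels name no treatment or mutation for any group. Since each population was 1 sample of 1 mouse, no test between populations was possible. All intervals are 95% exact intervals that cover counting error only. A limit given for a count of 0 is instead that of 3 counts, which lies below the upper end of the exact interval. The wells are cells and not replicates.

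Phagocytes use this enzyme to pass electrons from NADPH across a membrane to oxygen, which gives the superoxide of the respiratory burst. Gp91phox carries the haem and flavin groups through which the electrons pass, and p22phox holds it stable in the membrane. In resting cells the p47phox and p40phox proteins stay in the cytosol, and on activation they move to the membrane together with a GTP-bound Rac protein. Loss of gp91phox, p22phox, p47phox or p40phox causes chronic granulomatous disease, and Rac2 is known as the Rac protein of blood cells whereas Rac1 is found in most tissues.

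The 5 populations held 403506, 834812, 666728, 135808 and 200396 UMIs on mouse genes in the granulocytes, progenitor/stem cells, erythroblasts, B lymphocytes and T lymphocytes, and the median well held between 3029 and 7959 UMIs. Each gate was highest in the summed transcripts of its own marker genes. Marker transcripts of the granulocytes and erythroblasts were also counted in the other gates. The 8 granulocyte markers together reached 1.51% of their granulocyte level in progenitor/stem cells, 1.13% in erythroblasts, 4.41% in B lymphocytes and 2.41% in T lymphocytes. The adult globin genes reached between 5.16% and 12.0% of their erythroblast share in the other gates. 1 B lymphocyte well, A8, had a Gr1 fluorescence in the range of the granulocytes, and without it the granulocyte markers in B lymphocytes were at 1.96%. Among the granulocytes, 13 wells carried monocyte transcripts and are described apart below. In sums over cells, fewer cells of a type and less RNA per cell cannot be told apart.

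In GENCODE M21 (GRCm38) Cybb (ENSMUSG00000015340) lies on the reverse strand at chrX:9435252-9487771, Cyba (ENSMUSG00000006519) on the reverse strand at chr8:122424776-122432930 and Ncf1 (ENSMUSG00000015950) on the reverse strand at chr5:134220053-134229625. Ncf4 (ENSMUSG00000071715) lies on the forward strand at chr15:78244801-78262580, and Rac2 (ENSMUSG00000033220) lies near it on the reverse strand at chr15:78559167-78572783. Rac1 (ENSMUSG00000001847) lies on the reverse strand at chr5:143503634-143528036. All are protein-coding genes. An exon of Ncf1 overlaps Gtf2ird2 and an exon of Rac1 overlaps Daglb, each on the opposite strand. Whether the counting used the strand is not given in the sources used here, so the counts of Ncf1 and Rac1 are uncertain.

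Promoter windows from RefSeq (GRCm38.p6), 250 bases before to 50 bases after the start of the gene, were on hand for Cybb, Cyba and Ncf1. The RefSeq start of Cybb lies inside the GENCODE span given above, whose upstream end is farther out. They are shown because these genes were all highest in the granulocytes. Of the 5 short words searched on both strands, GAAANNGAA, a word found in binding sequences of interferon regulatory factors, was the one shared by Cybb and Ncf1. It had 3 matches in the window of Cybb, 1 in that of Ncf1 and none in that of Cyba, and 8.56% of all 32851 windows hold it. The 150 bases before the RefSeq start are given 5′ to 3′ on the strand of the gene, with matches of GAAANNGAA on either strand in capitals, for Cybb at chrX:9469325-9469474, Ncf1 at chr5:134229626-134229775 and Cyba at chr8:122432941-122433090, all reverse strand:
Cybb: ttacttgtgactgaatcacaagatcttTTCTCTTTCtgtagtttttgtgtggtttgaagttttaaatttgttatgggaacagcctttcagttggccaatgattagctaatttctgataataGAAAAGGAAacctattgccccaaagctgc
Ncf1: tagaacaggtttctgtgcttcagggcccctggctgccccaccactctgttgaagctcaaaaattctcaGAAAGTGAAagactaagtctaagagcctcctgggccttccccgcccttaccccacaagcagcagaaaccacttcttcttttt
Cyba: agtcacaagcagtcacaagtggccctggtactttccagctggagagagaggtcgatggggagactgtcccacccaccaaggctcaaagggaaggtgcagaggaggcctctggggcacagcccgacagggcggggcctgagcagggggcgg
The matches of Cybb in this stretch span bases 123 to 115 (on the opposite strand) and 29 to 21 before the start, and the match of Ncf1 spans bases 82 to 74. A further match of Cybb, at bases 167 to 159, lies outside the stretch. GAGGAA, a core word of ETS factors such as PU.1, was found in the window of Cybb, just after the start, and in 28.3% of all windows. AGATAA, a word bound by the main transcription factor of erythroid cells, was found in the windows of Cybb and Cyba and in 11.2% of all windows. TTGCNNAA, a C/EBP word (10.8% of windows), and GAGGAAGT (3.20%) were in none of the 3 windows. A match is a description of letters, and no binding was measured.

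Cybb, the electron-carrying subunit, was higher in the granulocytes than in every other population. Its 1153 UMIs there gave 2857 CPM (95% interval 2695 to 3027), where CPM is the number of UMIs on a gene for every 1000000 UMIs on mouse genes in the population. Elsewhere it was at 272 CPM (192 to 376) in B lymphocytes, 68.3 CPM (51.7 to 88.5) in progenitor/stem cells, 64.9 CPM (34.5 to 111) in T lymphocytes and 60.0 CPM (42.9 to 81.7) in erythroblasts. The granulocyte level was 10.5-fold that of the B lymphocytes (7.56 to 15.0) and between 41.8-fold and 47.6-fold that of the other 3 populations. The B lymphocytes stood above the progenitor/stem cells by 2.00 on the log2 scale (1.36 to 2.62). The intervals between neighbours among progenitor/stem cells, T lymphocytes and erythroblasts included equality, so these 3 could not be ordered. Wells of the granulocytes ranged from 0 to 56 Cybb UMIs with a median of 9, and the wells of each other population had a median of 0 and a highest well of 3 to 9.

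**Figure D1:**
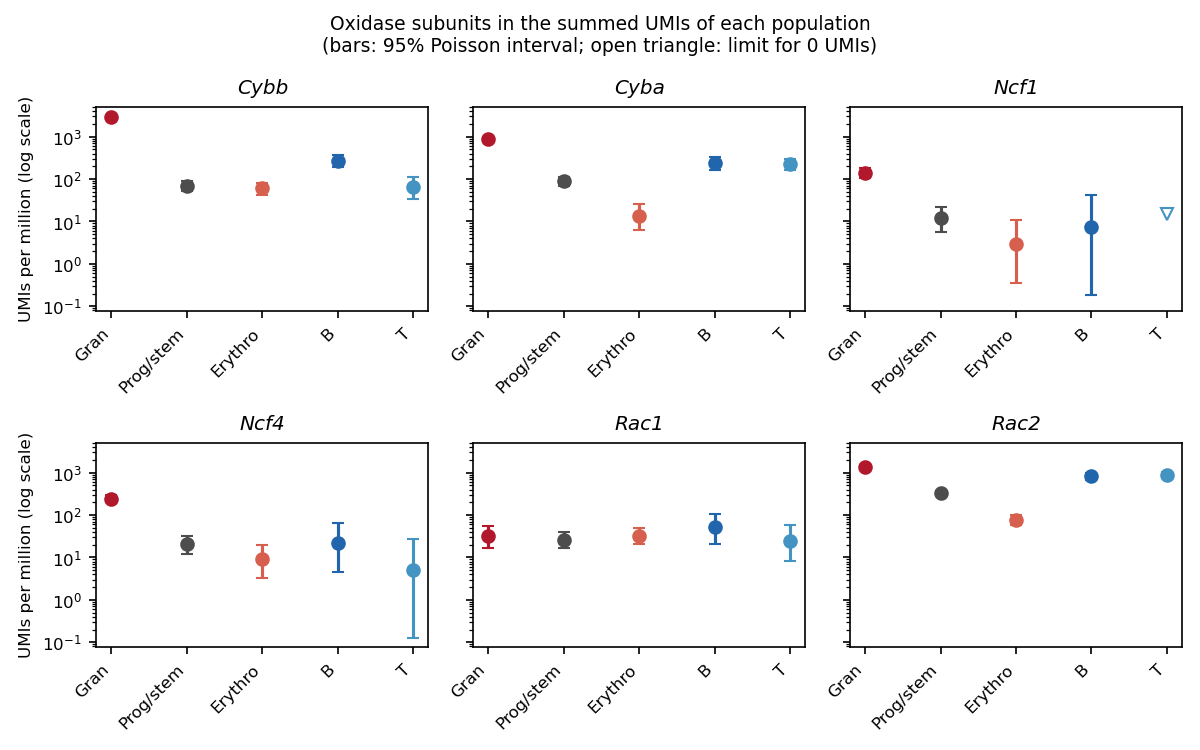
Level of each of the 6 genes in the summed UMIs of the 5 populations, in CPM on a log axis shared by the panels. Points are single population sums of 1 mouse, bars are 95% exact Poisson intervals, and the open triangle for Ncf1 in T lymphocytes marks 15.0 CPM, the level of 3 UMIs. Cybb falls from 2857 CPM in the granulocytes to 60.0 CPM in erythroblasts, whereas the Rac1 intervals overlap in all 5 populations.

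Cyba, whose protein stabilises gp91phox and also serves other oxidases, was again highest in the granulocytes but was spread more widely. It reached 867 CPM (779 to 963, 350 UMIs) in the granulocytes, 236 CPM (161 to 333) in B lymphocytes, 225 CPM (164 to 300.5) in T lymphocytes, 88.6 CPM (69.6 to 111) in progenitor/stem cells and 13.5 CPM (6.17 to 25.6) in erythroblasts. The granulocytes held 3.68-fold the level of the B lymphocytes (2.56 to 5.47), 3.86-fold that of the T lymphocytes (2.83 to 5.39) and 9.79-fold that of the progenitor/stem cells (7.60 to 12.8). Both lymphocyte populations were alike within counting error, with a log2 difference of 0.07 (-0.63 to 0.76), and every other neighbouring pair was separated in CPM. Granulocyte wells held 0 to 13 UMIs with a median of 3, and 87 of the 96 held at least 1. After thinning of every well to 1000 UMIs, 56.8% of granulocyte wells would hold a Cyba UMI, against 23.2% of B lymphocyte, 20.7% of T lymphocyte, 9.27% of progenitor/stem and 0.98% of erythroblast wells.

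The balance of both membrane subunits differed between populations. Cybb made up 76.7% (74.5 to 78.8) of the UMIs on Cybb and Cyba in the granulocytes, 43.5% (34.9 to 52.4) in progenitor/stem cells and 22.4% (12.5 to 35.3) in T lymphocytes. The B lymphocytes lay at 53.6% (41.2 to 65.7), and at 50.0% (37.2 to 62.8) without well A8. In the erythroblasts the share was 81.6% (68.0 to 91.2) of 49 UMIs, near that of the granulocytes. Cybb and Cyba were there at 2.10% and 1.56% of their granulocyte level, within the range of the 8 granulocyte markers (0.61% to 3.17%). Cybb also lay within the marker range in progenitor/stem cells and T lymphocytes, as given below. The part of carried-over RNA in these shares was not tested. The T lymphocyte share was below that of the 3 bone marrow populations other than progenitor/stem cells with no overlap of intervals, and its interval met that of the progenitor/stem cells only at the margin. A share of UMIs within a pair does not depend on how the populations were scaled.

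**Figure D2:**
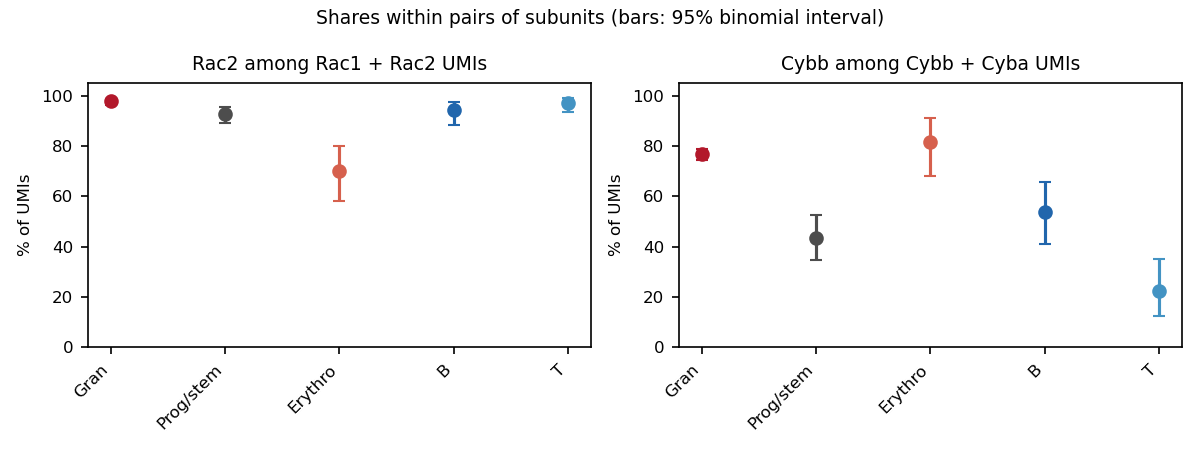
Share of Rac2 among the UMIs on Rac1 and Rac2 (left) and of Cybb among the UMIs on Cybb and Cyba (right), in percent on linear axes from 0, with 95% exact binomial intervals. The erythroblasts stand lowest for Rac2, at 69.9%, and the T lymphocytes lowest for Cybb, at 22.4%.

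Ncf1, the subunit whose phosphorylation starts assembly, gave few UMIs in every population. It was at 141 CPM (107 to 183, 57 UMIs) in the granulocytes and 12.0 CPM (5.74 to 22.0, 10 UMIs) in progenitor/stem cells, an 11.8-fold difference (5.97 to 25.9). The erythroblasts held 2 UMIs, which left the granulocytes 47.1-fold higher (12.5 to 398). The B lymphocytes held 1, in well A8, for a ratio of 19.2 (3.31 to 771). The T lymphocytes held 0, and with a floor of 3 UMIs over that population the granulocytes were at least 9.44-fold higher (7.43 at the lower end of the exact interval). Of the granulocyte wells 46 of 96 held an Ncf1 UMI, with at most 3 in a well, and 0 of 43 T lymphocyte wells did, which allows a share of up to 6.98%.

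Ncf4, whose product binds a phosphoinositide of the phagosome membrane, followed the same order at its top. It reached 245 CPM (199 to 299, 99 UMIs) in the granulocytes, 22.1 CPM (4.56 to 64.6, 3 UMIs) in B lymphocytes, 20.4 CPM (11.9 to 32.6, 17 UMIs) in progenitor/stem cells, 9.00 CPM (3.30 to 19.6, 6 UMIs) in erythroblasts and 4.99 CPM (0.13 to 27.8, 1 UMI) in T lymphocytes. The granulocytes were 12.0-fold above the progenitor/stem cells (7.16 to 21.5) and 27.3-fold above the erythroblasts (12.1 to 76.1). No neighbours below the granulocytes were separated. Granulocyte wells held 0 to 6 UMIs with a median of 1.

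Taking Cybb, Cyba, Ncf1 and Ncf4 as the core subunits, the granulocytes held 1659 UMIs on them, or 4111 CPM (3916 to 4314). The sums elsewhere were 538 CPM (421 to 676) in B lymphocytes, 294 CPM (224 to 380) in T lymphocytes, 189 CPM (161 to 221) in progenitor/stem cells and 85.5 CPM (64.8 to 111) in erythroblasts. On the log2 scale the granulocytes were higher by 2.94 (2.60 to 3.29), 3.80 (3.43 to 4.20), 4.44 (4.20 to 4.69) and 5.59 (5.21 to 5.99) in that order. All neighbours in this order were separated in CPM. The order below the granulocytes was not kept in UMIs per well. The progenitor/stem cells held 158 core UMIs in 95 wells, the B lymphocytes 73 in 44 and the T lymphocytes 59 in 43. In UMIs per well the T lymphocytes thus lay below the progenitor/stem cells, and the B lymphocytes did not lie above them. The median gene itself lay lower in the granulocytes by -0.76 against the progenitor/stem cells, -0.55 against the erythroblasts and -0.33 against the T lymphocytes, and at 0.01 against the B lymphocytes. Relative to the median gene the core subunits stood higher by 5.20, 6.14, 4.14 and 2.92 in these 4 comparisons.

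All 4 core subunits were found together mainly in granulocyte wells. They shared a well in 21 of the 96 granulocyte wells (21.9%, 14.1 to 31.5), whose median depth was 4884 UMIs, and in 2 of the 95 progenitor/stem wells. No erythroblast, B lymphocyte or T lymphocyte well held all 4, which allows shares of up to 3.12%, 6.82% and 6.98%. At least 1 core UMI was present in 94 of 96 granulocyte wells, and the other 2 wells had a median of 38.5 UMIs in all. The erythroblasts, a cell type not known for this enzyme, had a core UMI in 45 of 96 wells at a median depth of 6114 UMIs, but in 8.14% of wells after thinning to 1000 UMIs, against 90.7% of granulocyte wells. The progenitor/stem wells were at 17.3%, the T lymphocyte wells at 26.7% and the B lymphocyte wells at 36.5% after the same thinning.

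Rac2, the Rac protein of blood cells, was spread over all leukocyte gates. It reached 1383 CPM (1270 to 1503, 558 UMIs) in the granulocytes, 873 CPM (749 to 1013) in T lymphocytes, 825 CPM (679 to 992) in B lymphocytes, 335 CPM (297 to 377) in progenitor/stem cells and 76.5 CPM (57.0 to 101) in erythroblasts. The granulocytes were 1.58-fold above the T lymphocytes (1.33 to 1.89), 1.68-fold above the B lymphocytes (1.37 to 2.07), 4.12-fold above the progenitor/stem cells (3.57 to 4.78) and 18.1-fold above the erythroblasts (13.6 to 24.6). The lymphocyte populations could not be ordered (log2 difference 0.08, -0.27 to 0.44), and all other neighbours were separated in CPM. In UMIs per well the B lymphocytes, with 112 UMIs in 44 wells, lay below the progenitor/stem cells, with 280 in 95 wells. Rac2 was found in 93 of 96 granulocyte, 41 of 43 T lymphocyte, 38 of 44 B lymphocyte, 87 of 95 progenitor/stem and 36 of 96 erythroblast wells.

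Rac1, which many tissues use, showed no separable difference among the 5 populations. Its levels were 51.5 CPM (20.7 to 106) in B lymphocytes, 33.0 CPM (20.7 to 50.0) in erythroblasts, 32.2 CPM (17.2 to 55.1) in the granulocytes, 26.4 CPM (16.5 to 39.9) in progenitor/stem cells and 25.0 CPM (8.10 to 58.2) in T lymphocytes. These rest on 69 UMIs in all, and the log2 ratio of granulocytes over progenitor/stem cells was 0.29 with an interval of -0.82 to 1.34. Differences of about 2-fold would thus not have been detectable at this depth.

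Rac2 accordingly took most of the UMIs on both Rac genes in the leukocytes. Its share was 97.7% (96.1 to 98.8) in the granulocytes, 97.2% (93.6 to 99.1) in T lymphocytes, 94.1% (88.3 to 97.6) in B lymphocytes and 92.7% (89.2 to 95.4) in progenitor/stem cells. In the erythroblasts it was 69.9% (58.0 to 80.1) of 73 UMIs, below the other 4 intervals.

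With 1 sample a population, a gene was called higher or lower when its CPM differed by at least 2-fold and at least 50 UMIs fell on it in both populations together. The filter kept 5 of the 6 genes in every comparison and left out Rac1. Of these 5, only Rac2 held at least 50 UMIs in every other population alone. Cybb and Cyba did so in the progenitor/stem cells only. Ncf1 and Ncf4 did so in none, with at most 10 and 17 UMIs in any other population. Where a gene passed only through its granulocyte UMIs, a call as higher was partly set by the filter. Against the progenitor/stem cells 5 of these 5 were higher in the granulocytes, where 13.7% of the 4440 genes kept were. Against the erythroblasts it was again 5 of 5, beside 26.2% of 3057 genes. Against the B lymphocytes 4 of 5 were higher, beside 29.9% of 1638 genes, and against the T lymphocytes 4 of 5, beside 22.8% of 1961. Rac2 was the exception in both lymphocyte comparisons at 0.75 and 0.66 on the log2 scale, and it passed the 2-fold mark there under scran, TMM or DESeq2 scaling, at 1.35 to 1.62. Against the progenitor/stem cells Rac2 was at 2.04, and it fell short of the mark in UMIs per well, at 0.98. None of the 5 was called lower in the granulocytes, where 42.7%, 40.2%, 20.1% and 30% of the genes kept were lower than in progenitor/stem cells, erythroblasts, B lymphocytes and T lymphocytes, and neither Rac1 nor a gene under 50 UMIs could be called.

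Each level outside the granulocytes, as a percentage of the granulocyte level, was set beside the range of the 8 granulocyte markers in the same population. The part of carried-over RNA in these levels was not tested. In the progenitor/stem cells the markers ran from 1.02% (S100a8) to 4.45% (Lcn2), and Cybb at 2.39% (1.80 to 3.12) lay within that range. Cyba at 10.2% (7.84 to 13.2), Ncf4 at 8.30% (4.65 to 14.0) and Ncf1 at 8.48% (3.86 to 16.8) lay above it, though the interval of Ncf1 reached into it. In the erythroblasts, with markers from 0.61% to 3.17%, Cybb at 2.10%, Cyba at 1.56% and Ncf1 at 2.12% lay within the range, and Ncf4 at 3.67% (1.31 to 8.27) lay just above it with an interval that reached in.

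**Figure D3:**
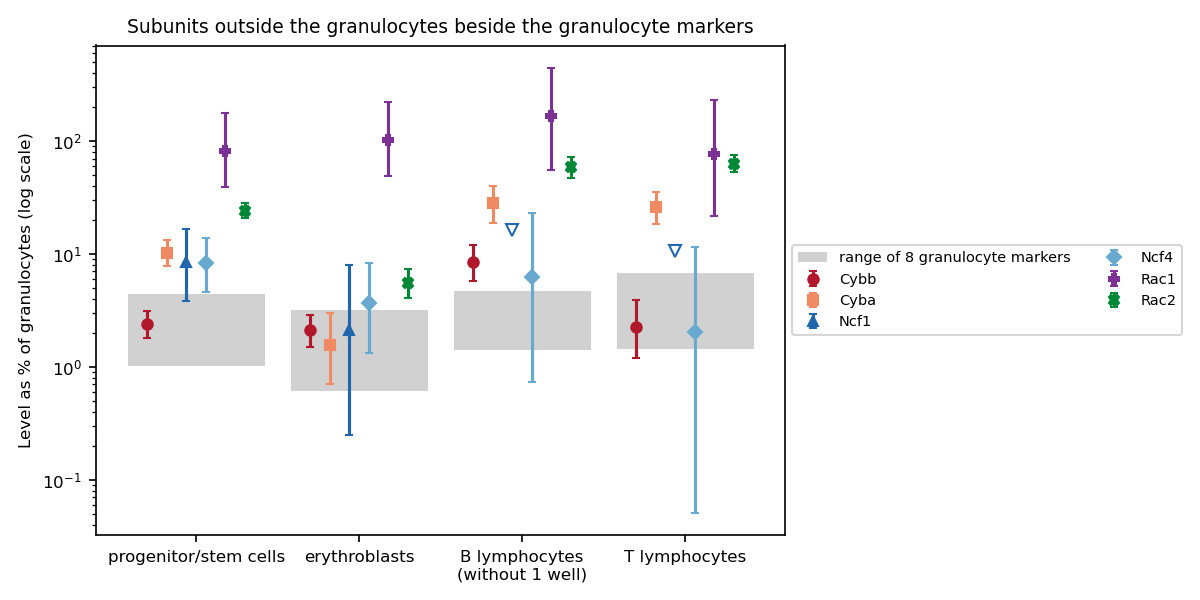
Level of each gene as a percentage of its granulocyte level in the other 4 populations (log axis), with 95% exact intervals, beside grey boxes that span the lowest to the highest of 8 granulocyte markers. B lymphocytes are plotted without well A8, and open triangles for Ncf1 mark the level of 3 UMIs where no UMI was found. Cybb lies inside the grey box in progenitor/stem cells (2.39%), erythroblasts (2.10%) and T lymphocytes (2.27%) and above it in B lymphocytes (8.53%).

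In the T lymphocytes the markers ran from 1.43% to 6.75%, with Cybb inside at 2.27% (1.21 to 3.90) and Cyba above at 25.9% (18.5 to 35.4). In the B lymphocytes the range depended on well A8. With that well it ran from 1.46% to 13.6% and held Cybb at 9.53%. Without it the range closed to 1.40% to 4.66%, and Cybb at 8.53% (5.81 to 12.1), Cyba at 28.1% (18.9 to 40.4) and Ncf4 at 6.21% (0.74 to 23.0, 2 UMIs) stood above. Well A8 itself held 5 Cybb, 1 Ncf1, 1 Ncf4 and 5 Rac2 UMIs but 0 of Cyba among 4531 UMIs. Rac2 lay above the markers in all 4 populations, at 24.3% of the granulocyte level in progenitor/stem cells, 5.53% in erythroblasts, 58.9% in B lymphocytes without A8 and 63.1% in T lymphocytes. The 3 measured markers of plasmacytoid dendritic cells, which are known to carry B220, summed to 648 CPM (88 UMIs, of which 86 were on Ly6d, a gene also known from B lineage cells, and 0 on Siglech) in B lymphocytes and at most 24.8 CPM elsewhere, and those of monocytes and macrophages to 361 CPM with 4 of 12 at 0. Their part in the B lymphocyte level of Cybb was not tested.

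The wells of the granulocyte gate did not all carry the subunits alike. The 94 wells with at least 300 UMIs were grouped into 3 clusters from 300 variable genes, with the 6 genes and all genes of the pathway lists left out of the clustering. Cluster 1 (44 wells) was led by Ltf, Ngp, Itgb2l and Camp. Cluster 2 (37 wells) was led by Gm5483, Clec4d, Jaml and Fgl2. Both carried the granulocyte markers, which summed to 218249 and 131869 CPM in clusters 1 and 2 and to 19464 CPM in cluster 3, and both go by their numbers. Cluster 3 (13 wells) was led by Fn1, Ms4a6c, Ccr2 and F13a1 and is called monocyte-like: its monocyte and macrophage markers summed to 10973 CPM, with 26 to 146 UMIs in each well and 3 of 12 at 0, against 80.3 and 250 CPM in clusters 1 and 2. The median Gr1 fluorescence, recorded at the sort and not used in the clustering, was 16424.5 in cluster 1, 23466 in cluster 2 and 1170 in cluster 3, and the median well held 4500, 2446 and 5746 UMIs.

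Cybb was low in cluster 2. Wells of cluster 1 held 2 to 46 Cybb UMIs with a median of 19.5, wells of cluster 2 held 0 to 8 with a median of 1, and wells of cluster 3 held 4 to 56 with a median of 17. In CPM this was 3967 (3703 to 4245), 611 (467 to 785) and 2743 (2415 to 3104). Cluster 1 was thus 6.49-fold above cluster 2 (5.00 to 8.56) and 1.45-fold above cluster 3 (1.25 to 1.67). The latter turned to 0.98-fold in UMIs per well and 0.93-fold per ERCC UMI. Every well of clusters 1 and 3 held a Cybb UMI, whereas 22 of the 37 wells of cluster 2 did. The wells of cluster 2 were the shallowest, and the ratio of cluster 1 over cluster 2 was 11.6-fold in UMIs per well. With 4 clusters in place of 3, cluster 1 was split, and the 19 wells set apart were counted with cluster 2. The log2 ratio was then 1.75 instead of 2.70.

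**Figure D4:**
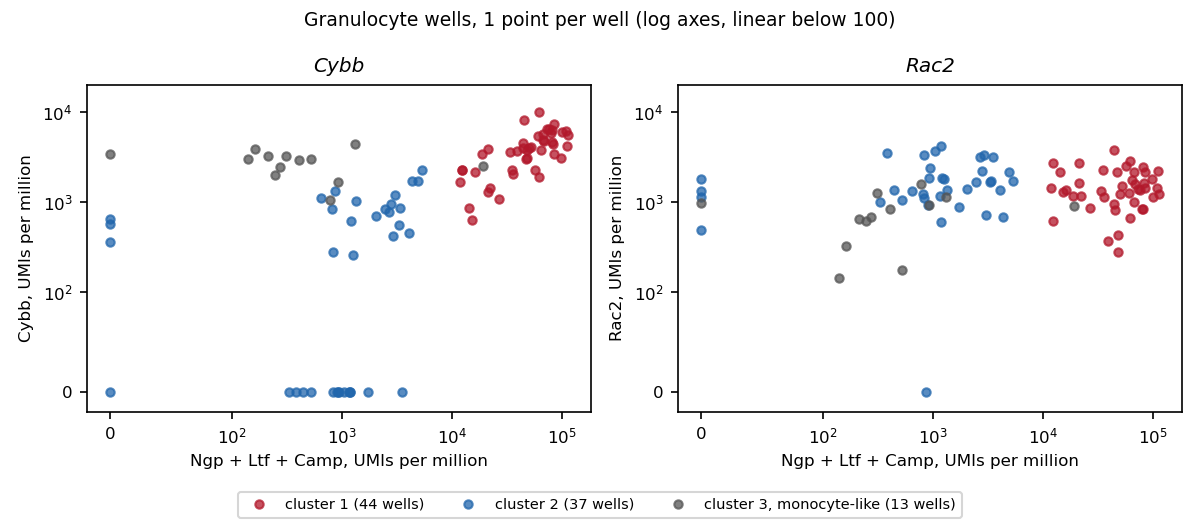
Cybb (left) and Rac2 (right) against the sum of Ngp, Ltf and Camp in each of 94 granulocyte wells, in CPM of the well, on log axes that are linear below 100. Cluster 1 lies at the upper right of the Cybb panel, and cluster 2 lies lower with 15 wells at 0. Cluster 3 has high Cybb beside low Ngp, Ltf and Camp, except for well I13 at 19086 CPM of that sum. Rac2 does not separate clusters 1 and 2. Clusters 1 and 2 were numbered by their Ngp, Ltf and Camp, so their order along the horizontal axis was set by that rule.

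Cyba differed far less between the clusters. It stood at 963 CPM (836 to 1105) in cluster 1, 761 CPM (600 to 953) in cluster 2 and 762 CPM (594 to 963) in cluster 3, and the ratio of cluster 1 over cluster 2 was 1.27 (0.97 to 1.67), or 2.26 in UMIs per well. The median gene lay at -0.24 on the log2 scale in this comparison, and relative to it Cyba stood 0.58 higher (0.19 to 0.98) and Cybb 2.94 higher (2.56 to 3.34) in cluster 1. Cybb therefore made up 80.5% (77.9 to 82.8) of the UMIs on both membrane subunits in cluster 1, 44.5% (36.0 to 53.3) in cluster 2 and 78.3% (73.4 to 82.6) in cluster 3. This share is free of the scaling between clusters of different depth.

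The cytosolic subunits Ncf1 and Ncf4 were not separated between clusters 1 and 2 in CPM. Ncf1 was at 240 CPM (154 to 358) in cluster 2 and 137 CPM (91.7 to 197) in cluster 1, with a ratio whose interval included equality. Ncf4 was at 312 CPM (241 to 397) in cluster 1 and 230 CPM (146 to 346) in cluster 2, again not separable. In UMIs per well cluster 1 over cluster 2 was 2.41-fold for Ncf4 (2.37-fold per ERCC UMI) and 1.02-fold for Ncf1. An Ncf4 UMI was present in 75.0% (59.7 to 86.8) of the wells of cluster 1. In the shallower wells of cluster 2 this was 37.8% (22.5 to 55.2). In the monocyte-like wells both were lower in CPM, with 43.5 CPM of Ncf1 (4 UMIs) and 109 CPM of Ncf4 (10 UMIs). Cluster 1 exceeded these wells 3.15-fold for Ncf1 (1.10 to 12.3) and 2.86-fold for Ncf4 (1.46 to 6.25). Cluster 2 exceeded them 5.52-fold for Ncf1 (1.90 to 21.9). For Ncf4, cluster 2 over cluster 3 was 2.12-fold with an interval that included equality (0.97 to 4.98), and 0.81-fold in UMIs per well. Without well I13 the interval of Ncf1 for cluster 1 over cluster 3 included equality (0.98 to 16.3). That of Ncf4 for cluster 2 over cluster 3 then did not (1.06 to 8.00).

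Rac2 was at 1516 CPM in cluster 1 and 1673 CPM in cluster 2 (ratio 0.91, 0.75 to 1.10, or 1.62 in UMIs per well), and stood lower in the monocyte-like wells at 762 CPM (594 to 963). Cluster 1 over cluster 3 was 1.99-fold for Rac2 (1.53 to 2.61), or 1.35-fold in UMIs per well. Cluster 2 over cluster 3 was 2.20-fold (1.65 to 2.94), but 0.84-fold in UMIs per well and 0.81-fold per ERCC UMI. Rac1 was higher in cluster 3 than in cluster 1, with 7 of its 13 granulocyte UMIs in 4 of the 13 monocyte-like wells. Cluster 3 was 5.38-fold above cluster 1 (1.23 to 32.2), which held 3 UMIs. Over cluster 2 it was 2.54-fold, with an interval that included equality (0.58 to 15.2). The Rac2 share of the UMIs on both genes was 99.1% (97.3 to 99.8), 98.2% (94.9 to 99.6) and 90.9% (82.2 to 96.3) in clusters 1, 2 and 3. At a 2-fold mark and 50 UMIs, Cybb was called higher in cluster 1 than in cluster 2, as were 9.71% of the 721 genes kept, and Cyba, Ncf1, Ncf4 and Rac2 were called in neither direction.

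**Figure D5:**
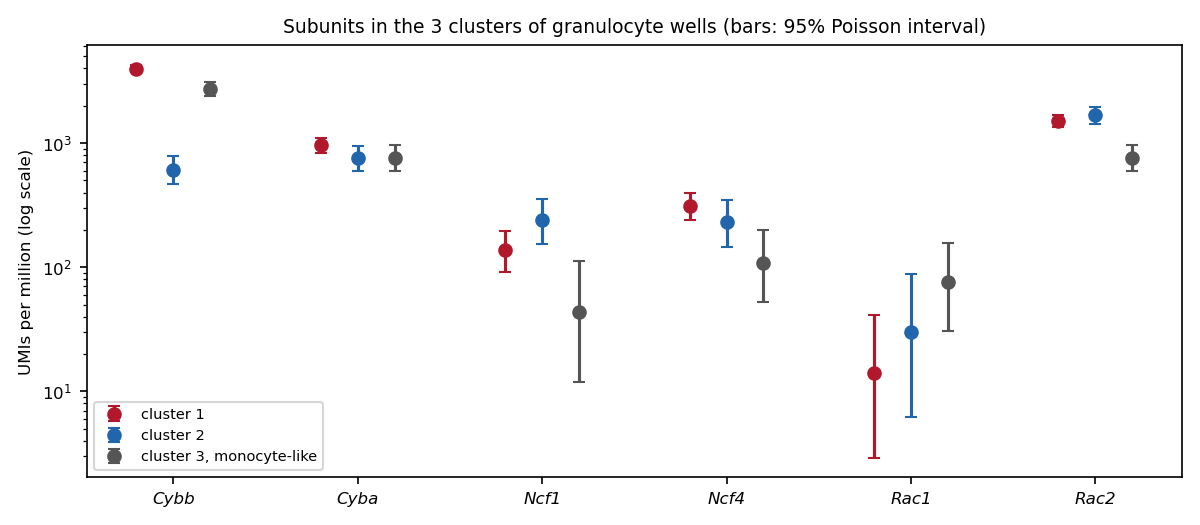
Level of the 6 genes in the 3 clusters of granulocyte wells, in CPM on a log axis, with 95% exact Poisson intervals. Cybb stands at 3967, 611 and 2743 CPM in clusters 1, 2 and 3, whereas the Cyba intervals of the 3 clusters overlap.

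Without the 13 monocyte-like wells the granulocytes kept their place. The log2 ratios of the core subunits were 4.49 over the progenitor/stem cells, 5.63 over the erythroblasts, 2.98 over the B lymphocytes and 3.85 over the T lymphocytes. Well I13, the deepest of the gate with 22425 UMIs, belonged to cluster 3 and held 56 Cybb UMIs; without it cluster 3 was at 2823 CPM of Cybb (2441 to 3247).

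Fluorescence and scatter recorded for each granulocyte gave a view that used no transcript. The 48 wells above the median side scatter (SSC-A), a measure of granularity, held Cybb at 1596 CPM against 3786 CPM in the 48 wells below it, a log2 difference of -1.25 (-1.45 to -1.05). Rac2 went the other way, at 1660 against 1179 CPM (0.49, 0.25 to 0.74). Above the median Gr1, Cybb was at 2085 against 3389 CPM (-0.70, -0.89 to -0.52), Ncf1 at 201 against 100 CPM (1.00, 0.20 to 1.82) and Rac2 at 1611 against 1226 CPM (0.39, 0.15 to 0.64). Above the median Mac-1, whose antigen is made of Itgam and Itgb2, Cybb was at 3421 against 2191 CPM (0.64, 0.47 to 0.82). Cyba, Ncf4 and Rac1 had intervals that included equality in all 3 of these splits. The clusters differ in Gr1 and SSC-A too, so the splits are not independent of them.

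Within the other gates few splits were separated. Rac2 in erythroblasts was at 98.8 CPM in the wells above the median CD44 and 42.0 CPM in the others (log2 difference 1.23, 0.24 to 2.35). CD44 is a surface protein that falls as erythroblasts mature. In the progenitor/stem cells Cybb was at 48.2 against 88.1 CPM above and below the median c-Kit, at 88.9 against 49.9 CPM for Sca-1 and at 47.1 against 90.1 CPM for FSC-A, each with an interval that just missed equality. These are levels within the range of the granulocyte markers. A single progenitor/stem well held 7 of the 57 Cybb UMIs, and its part in these splits was not tested. Every other split of the 6 genes in these gates, by FSC-A in B lymphocytes and CD3 in T lymphocytes included, had an interval that included equality, and with few UMIs these intervals were wide.

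Across the 96 granulocyte wells the core subunits and the granulocyte markers had a Pearson's r of 0.20 and a Spearman's rho of 0.52, on log2(CPM + 100). Core subunits and monocyte markers had an r of 0.02 and a rho of -0.09, and Rac2 and the core subunits an r of 0.15 and a rho of -0.09. In the 94 wells with at least 1000 UMIs r was 0.08, -0.04 and -0.19 for these pairs and rho 0.55, -0.13 and -0.16, so that the r of Rac2 with the core subunits changed sign without the other 2 wells. Over 95 progenitor/stem wells the core subunits and Mpo, the myeloperoxidase gene of early granule formation, had an r of -0.01 and a rho of -0.05. The wells share mouse, plate and composition, and these values describe sparse counts.

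The genes around the oxidase were followed through 5 fixed lists, on which 32 of 40 genes had a row and the others are not analysed here. Counting all 32, 11 of the 24 that passed the filter were higher in the granulocytes than in progenitor/stem cells and 1 was lower, and the counts were 17 and 0 of 18 against the erythroblasts, 11 and 1 of 20 against the B lymphocytes and 12 and 0 of 20 against the T lymphocytes. Over all genes kept, 13.7%, 26.2%, 29.9% and 22.8% were higher in the 4 comparisons in that order. Mpo was among the genes higher than in erythroblasts, B lymphocytes and T lymphocytes, and without granulocyte well I13, left out after the data had been seen, Mpo was no longer counted and 16, 10 and 11 were higher. The median log2 ratio of the listed genes was 0.55, 5.33, 1.42 and 1.87 against the progenitor/stem cells, erythroblasts, B lymphocytes and T lymphocytes, beside medians of -0.76, -0.55, 0.01 and -0.33 over all genes kept. The lists hold S100a8 and S100a9, which are also among the granulocyte markers. They also hold Itgam and Itgb2, which encode the Mac-1 antigen of the granulocyte gate and were counted as higher in all 4 comparisons. The counts were partly set by the filter, since Fpr1, Fpr2, Fcgr3 and C5ar1, among others, passed it only through their granulocyte UMIs.

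Receptors that trigger the burst were higher in the granulocytes throughout. All 6 that passed the filter, the formyl peptide receptors Fpr1 and Fpr2, the Fc receptor Fcgr3, the complement receptor chains Itgam and Itgb2 and the C5a receptor C5ar1, were higher in each of the 4 comparisons. Fpr2 was at 726 CPM (645 to 814) in the granulocytes and at 9.00 to 54.9 CPM elsewhere, and Fpr1 was at 248 CPM (202 to 301) and at no more than 5.99 CPM, with no UMI in B lymphocytes. Itgam and Itgb2 encode the Mac-1 antigen by which the granulocytes were sorted, so their counts are not independent of the gate. Itgam was at 1103 CPM (1003 to 1210) against 28.5 to 133 CPM. Itgb2, which other leukocytes share for their own integrins, was at 1004 CPM (908 to 1106) and at 409 CPM (325 to 508) in T lymphocytes. Fcgr3 was at 357 CPM and C5ar1 at 134 CPM, with at most 4 UMIs of either in any other population. Fpr1, Fpr2, Fcgr3 and C5ar1 reached 50 UMIs only through the granulocytes, so their calls as higher were partly set by the filter. Tlr2 and Clec7a had 26 and 29 UMIs, and all 29 of Clec7a were in the granulocytes.

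Arhgdib, a GDP dissociation inhibitor that keeps Rac proteins in the cytosol, was at 872 CPM (784 to 968) in the granulocytes, 434 CPM (348 to 536) in T lymphocytes, 297 CPM (261 to 336) in progenitor/stem cells, 287 CPM (204 to 393) in B lymphocytes and 21.0 CPM (11.5 to 35.2) in erythroblasts. It was called higher in all 4 comparisons, at 2.01-fold against the T lymphocytes and thus at the mark itself. Its relative Arhgdia, the exchange factor genes Vav1 and Dock2, and Arhgap15 and Arhgap25, which switch Rac off, passed the filter against both lymphocyte populations and were called in neither comparison. The exchange factor genes Vav3 and Tiam1 had too few UMIs to be called there, and Vav3 was at 91.7 CPM in the granulocytes, 58.9 CPM in B lymphocytes and 20.0 CPM in T lymphocytes. Dock2, for example, was at 221 CPM (177 to 271) in the granulocytes, 295 CPM (210 to 401) in B lymphocytes and 259 CPM (194 to 340) in T lymphocytes, but at 15.0 CPM (7.19 to 27.6) in erythroblasts. Against the progenitor/stem cells Arhgap25 was also called higher, at 188 against 82.7 CPM.

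The kinases and lipid enzymes of activation were mixed. Prkcd, a protein kinase C that phosphorylates p47phox, was at 377 CPM (319 to 442) in the granulocytes, 221 CPM (149 to 315) in B lymphocytes, 110 CPM (88.8 to 135) in progenitor/stem cells, 49.9 CPM (23.9 to 91.8) in T lymphocytes and 6.00 CPM (1.63 to 15.4) in erythroblasts, and was called higher against all but the B lymphocytes. Pik3cg, the catalytic subunit of the lipid kinase downstream of chemoattractant receptors, was at 136 CPM (103 to 177) and called higher against the T lymphocytes and erythroblasts. Pla2g4a, a phospholipase A2, was the 1 listed gene lower in the granulocytes than in progenitor/stem cells, at 27.3 CPM (13.6 to 48.8) against 87.4 CPM (68.5 to 110). Mapk14, the p38 kinase gene, was called higher against the B lymphocytes (139 against 58.9 CPM), and Pak2 was called higher against the erythroblasts (283 against 43.5 CPM). Pik3r5 and Pak1 reached 73 and 82 UMIs over all wells and fell under the filter in most comparisons.

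Among partners of the burst at the membrane, S100a8 and S100a9, which encode calprotectin, were between 25.5-fold and 119-fold higher in the granulocytes. The lowest of these ratios, against the B lymphocytes, rose to 63.5-fold for S100a9 and from 27.6-fold to 68.1-fold for S100a8 without well A8. Hvcn1, the proton channel that balances the charge moved by the oxidase, was lower in the granulocytes than in B lymphocytes, at 94.2 CPM (66.6 to 129) against 280 CPM (198 to 384), and at 49.9 CPM or less elsewhere. Mpo, whose product uses the hydrogen peroxide formed after the burst, was at 124 CPM (92.0 to 163) in the granulocytes and 231 CPM (200 to 266) in progenitor/stem cells, and 48 of its 50 granulocyte UMIs were in well I13 alone, without which 2 were left in the gate. Rap1a, a small GTPase that was purified with the membrane subunits, was at 41.9 to 66.3 CPM in all 5 populations.

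Over the 5 populations, the genes whose pattern was most like each member were found among 1910 genes with at least 200 UMIs, by the Euclidean distance of log2(CPM + 10) centred on each gene's own mean. For Cybb these were Ccl6 (distance 0.26), Lgals3 (0.44) and Cd177 (0.58), and Ccl6 was at 962 CPM in the granulocytes, 88.4 CPM in B lymphocytes and 19.2 to 20.0 CPM in the others. For Cyba they were Lsp1 (0.50), Ahnak (0.86) and Gpsm3 (0.88). Ncf1 and Ncf4 shared Glrx (0.68 and 0.86) and Prr13 (0.94 and 0.84), with Myo1f (1.04) for Ncf1 and S100a11 (0.95) for Ncf4. Rac2 lay nearest to Cap1 (0.34), Add3 (0.43) and Samhd1 (0.45), and Rac1 to Becn1 (0.34), Usp4 (0.36) and Nedd8 (0.40). Ncf1, Ncf4 and Rac1 themselves had 70, 126 and 69 UMIs over all wells, below the 200 asked of the compared genes, so their distances rest on few counts. With 5 points a gene, such likeness is a description only.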

How the data were processed

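The deposited counts are UMIs per gene and well, collapsed by the authors and not normalized, and 74 spike-in (ERCC) rows accompany the mouse genes. Their pipeline aligned the reads, took those on exons, split them by cell barcode and counted distinct UMIs. Build, annotation and strand setting were not given in the sources used here, and the labels describe read 1 in 2 contradicting ways. Wells tied the columns to the labelled cells, which left 9 columns without a sample, unused. Symbols and coordinates came from GENCODE M21 (74 IDs with 1107 UMIs had no symbol). The human cell line experiments are not analysed here.

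UMIs were summed per population and scaled to CPM on the UMIs of mouse genes (19829 rows). Intervals are exact Poisson for sums, exact binomial for shares and exact conditional binomial for ratios, at 95%. They were tested on simulated sums drawn with counting error alone, which is the error they assume, so the test does not cover the spread between wells. Each population is 1 sample of 1 mouse, so no p-value was computed, and a 2-fold difference with at least 50 UMIs stands in for a call. A population at 0 UMIs was set to a floor of 3 UMIs over that population. Thinned shares are the expected shares of wells after drawing 1000 UMIs from each well, leaving out shallower wells.

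Granulocyte wells with at least 300 UMIs were grouped by Ward clustering of 10 principal components of 300 variable genes (log2 of UMIs per 10000 plus 1), into 3 clusters, a step added after the data had been seen. Of the clusters, the one highest in the monocyte and macrophage markers was numbered 3. Of the others, the one highest in Ngp, Ltf and Camp was numbered 1, and the rest was numbered 2. Doublets were not called. Scaling alternatives used scran 1.30.0, edgeR 4.0.16 (TMM) and DESeq2 1.42.0 for factors only, in R 4.3.3, and the rest Python 3.11.15 with numpy 2.4.6, pandas 2.3.3, scipy 1.17.1 and scikit-learn 1.9.0.

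The members and lists were chosen with earlier results of these data known. Genes named are the 6 members, every listed gene with at least 50 UMIs over the 374 wells, and the 3 genes nearest to each member. Some genes were named outside that rule, after their values were seen: Tlr2 and Clec7a, the leading genes of clusters, and markers. An outlier filter on total UMIs, genes, ERCC share and mitochondrial share, tried as an alternative, kept 335 of 374 wells. 1 listed gene is not reported here and was left out of the lists.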

Additional observations from a re-analysis of the deposited data

How the results depend on the processing

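On the log2 scale, the granulocytes stayed above the other populations in the core subunits under every alternative, from 2.74 to 5.63, and so did Cybb (3.21 to 6.32), Cyba (1.69 to 6.41), Ncf1 where it had UMIs (2.50 to 5.83), Ncf4 (2.53 to 7.12) and Rac2 (0.51 to 4.36), while Rac1 ran from -1.42 to 1.22. The core ratios that left their interval were as follows. Scran factors gave 5.28 over the progenitor/stem cells, 5.16 over the erythroblasts, 3.42 over the B lymphocytes and 4.52 over the T lymphocytes. TMM factors gave 5.21, 3.60 and 4.55, and DESeq2 factors 5.37, 3.54 and 4.56, over the progenitor/stem cells, B lymphocytes and T lymphocytes. UMIs per ERCC UMI gave 3.48, 4.75 and 3.30 and UMIs per well 3.38, 4.86 and 3.38 over the progenitor/stem cells, erythroblasts and B lymphocytes. TMM moved the median gene over the progenitor/stem cells from -0.76 to 0.01, and the cause of the other shifts was not tested. With a minimum of 1 UMI, 28 listed genes were higher against the erythroblasts and 17 against the B lymphocytes, beside 17 and 11 at 50 UMIs, since more genes were counted. With a minimum of 20 UMIs 913, 1609, 921 and 817 of all genes were higher, and with 100 UMIs 353, 376, 245 and 231, against 607, 802, 490 and 448. The Rac2 shares stayed within their intervals in every alternative run. Between clusters 1 and 2, alternatives chosen after seeing the data gave 1.75 for Cybb and 1.28 for the core subunits with 4 clusters, 3.53 and 2.38 in UMIs per well, and 3.51 and 2.36 per ERCC UMI, beside 2.70 and 1.55. With 4 clusters, 19 wells of cluster 1 were counted with cluster 2. Depth limits Ncf1, Ncf4 and Rac1, and no value has a biological replicate. No paired analysis was possible because each population is 1 sample of 1 mouse and the labels number no replicates.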
